A study of Homo sapiens with 24 samples.

Results

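The 10 genes described here encode proteins that tumour cells show to, or release towards, immune cells: CD274, PDCD1LG2, CD276, CD47, PVR, NECTIN2, ICAM1, CD58, LGALS9 and TNFSF10. They were chosen by symbol, with earlier results of these data known, from the 58721 genes of the raw count table. Of those genes 24600 had at least 1 count. Reads from the poly-A end of transcripts (3′ RNA-seq) were counted in 24 libraries from 2 human bladder cancer cell lines, RT112 (labelled LumP, luminal papillary) and SCaBER (labelled Ba/Sq, basal/squamous). Each line was transfected by lipid reagent with 6 siRNA treatments, and each of the 12 groups held 2 libraries. The control group received siControl, a control siRNA. The other groups received siZBED2-1 or siZBED2-2, which target the transcription factor ZBED2, siFOXA1, which targets the pioneer factor FOXA1, and siFOXA1 combined with either ZBED2 siRNA (siFOXA1+siZBED2-1 and siFOXA1+siZBED2-2, the double knock-downs). FOXA1 was targeted with 1 siRNA, number 1 in the labels, in every library given siFOXA1, so that effects of its sequence and of lower FOXA1 cannot be told apart. All groups, controls included, had received siRNA, and RNA abundance was measured without any reading of surface protein.

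Checkpoint ligands bind receptors on T cells, natural killer cells or macrophages and restrain them, and adhesion ligands hold the immune cell against its target. CD274 (PD-L1) and PDCD1LG2 (PD-L2) bind PD-1, CD276 (B7-H3) is a B7 family member whose receptor is still debated, and CD47 binds SIRPA on macrophages. PVR (CD155) and NECTIN2 (CD112) bind both the inhibitory receptor TIGIT and the activating receptor CD226, while ICAM1 and CD58 bind the integrin LFA-1 and CD2 respectively. LGALS9 (galectin-9) is a secreted lectin that binds TIM-3 among other glycoproteins, and TNFSF10 (TRAIL) triggers death receptors. Several of these genes are known to respond to interferons and to NF-kB in epithelial cells.

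Total counts per library ran from 4425404 to 6119210. Levels are given as CPM, counts scaled to a common depth with the TMM factors of all 24 libraries, and a count of 3, the most that a count of 0 allows, was worth 0.603 CPM on average in the RT112 siControl libraries. Such floors cover counting error only. Markers went with the line labels: summed luminal markers reached 1368 to 2695 CPM in RT112 and 73.5 to 146 CPM in SCaBER, and summed basal markers 198 to 452 CPM and 3273 to 5551 CPM. Of 10 leukocyte markers 6 in RT112 and 7 in SCaBER had no count in any library, and their summed level did not exceed 5.53 CPM. FOXA1 was 41.9 and 41.4 CPM in the RT112 siControl libraries and 6.86 and 9.56 CPM after siFOXA1, a fall by 2.36 on the log2 scale (SE 0.38, adjusted p = 5.68e-05). In SCaBER FOXA1 was already low, at 20 and 28 counts under siControl and 4 and 6 counts under siFOXA1, and the log2 fold change of -2.09 (SE 1.23) did not pass the test (adjusted p = 0.272). ZBED2 fell under siZBED2-1 in both lines, with log2 fold changes of -3.97 (RT112, adjusted p = 0.00624) and -1.96 (SCaBER, adjusted p = 0.00848). Under siZBED2-2 its log2 fold changes were -1.52 (adjusted p = 0.903) and -0.61 (adjusted p = 0.844), and in SCaBER the siZBED2-2 libraries still held 8.73 and 15.8 CPM against 18.9 CPM in both controls. In RT112 siFOXA1 alone also lowered ZBED2, from 22.0 and 16.9 CPM to 5.45 and 1.52 CPM (log2 fold change -2.48, adjusted p = 0.0325).

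On GRCh38.p14, the build of the RefSeq tables used for positions, CD274 (chr9:5450542-5470554) and PDCD1LG2 (chr9:5510531-5571282) are neighbours, 39976 bases apart, and the long non-coding RNA gene INCR1 overlaps both. PVR (chr19:44643910-44666162) and NECTIN2 (chr19:44846297-44889223) also lie near each other, and ICAM1 (chr19:10271120-10286615) is on the same chromosome. The others are CD276 (chr15:73683944-73714514), CD47 (chr3:108043091-108091031), TNFSF10 (chr3:172505508-172523430), LGALS9 (chr17:27631188-27649560) and CD58 (chr1:116514534-116571026). The coding gene CEACAM19 overlaps the end of PVR and held at most 48 counts in a library. LGALS9 has close copies, LGALS9B and LGALS9C, between which reads can be split, and its values are therefore less certain than those of the other members.

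Promoter windows of 300 bases, from 250 before to 50 after the start site, were read from RefSeq for 9 of the 10 genes, PDCD1LG2 having no entry in the table. They are shown for CD274, LGALS9 and PVR, the members that were called under siFOXA1 in both lines, and for ICAM1 and TNFSF10, added after their values were seen because they fell in the SCaBER double knock-downs. Capitals mark matches, on either strand, to GAAANNGAA (interferon-stimulated response element, present in 8.1% of the 35116 windows in the table), TTCNNNGAA (gamma-activated sequence, 7.7%) or GGANNTTCC (NF-kB, 4.6%). The forkhead motif TGTTTAC, present in 3.4%, matched none of the 9 genes.
CD274, chr9:5450292-5450591, plus strand: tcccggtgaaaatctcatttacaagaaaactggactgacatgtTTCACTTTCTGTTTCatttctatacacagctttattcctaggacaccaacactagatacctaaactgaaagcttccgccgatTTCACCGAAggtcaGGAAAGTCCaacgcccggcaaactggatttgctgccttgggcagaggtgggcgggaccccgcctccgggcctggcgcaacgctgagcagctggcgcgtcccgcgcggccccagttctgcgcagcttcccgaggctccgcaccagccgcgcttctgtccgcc
LGALS9, chr17:27630938-27631237, plus strand: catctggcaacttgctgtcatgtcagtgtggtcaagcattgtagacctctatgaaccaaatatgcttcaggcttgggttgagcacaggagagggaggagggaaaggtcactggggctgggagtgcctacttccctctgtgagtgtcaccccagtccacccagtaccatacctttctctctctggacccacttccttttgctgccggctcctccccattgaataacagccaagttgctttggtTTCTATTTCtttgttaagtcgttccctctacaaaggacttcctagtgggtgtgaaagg
PVR, chr19:44643660-44643959, plus strand: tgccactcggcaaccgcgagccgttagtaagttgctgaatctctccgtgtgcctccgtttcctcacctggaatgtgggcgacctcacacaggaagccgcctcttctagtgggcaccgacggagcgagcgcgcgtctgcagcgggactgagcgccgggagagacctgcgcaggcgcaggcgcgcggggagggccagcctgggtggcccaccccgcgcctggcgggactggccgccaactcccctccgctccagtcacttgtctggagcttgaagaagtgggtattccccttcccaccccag
ICAM1, chr19:10270870-10271169, plus strand: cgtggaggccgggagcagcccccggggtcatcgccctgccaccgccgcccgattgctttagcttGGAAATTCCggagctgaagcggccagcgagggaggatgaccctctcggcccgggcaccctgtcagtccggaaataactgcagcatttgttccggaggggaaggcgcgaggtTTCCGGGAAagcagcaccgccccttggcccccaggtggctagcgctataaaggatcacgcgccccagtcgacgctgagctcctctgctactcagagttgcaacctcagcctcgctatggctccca
TNFSF10, chr3:172523381-172523680, minus strand: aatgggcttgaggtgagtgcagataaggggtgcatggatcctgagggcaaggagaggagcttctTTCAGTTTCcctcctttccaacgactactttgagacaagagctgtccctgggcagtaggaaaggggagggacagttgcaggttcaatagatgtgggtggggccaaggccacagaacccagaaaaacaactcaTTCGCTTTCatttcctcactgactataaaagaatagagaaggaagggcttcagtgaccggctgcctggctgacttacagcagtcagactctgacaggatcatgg
CD274 held a pair of overlapping interferon response matches beginning 207 and 201 bases before its start site, a gamma-activated match at 125 bases and an NF-kB match at 111 bases. LGALS9 held an interferon response match 8 bases before the start, TNFSF10 held them at 186 and 54 bases, and ICAM1 held an NF-kB match at 186 bases and a gamma-activated match at 75 bases. PVR, CD276, CD47, NECTIN2 and CD58 held none of the motifs in these windows. A match describes letters and is not a measured binding site.

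**Figure D1:**
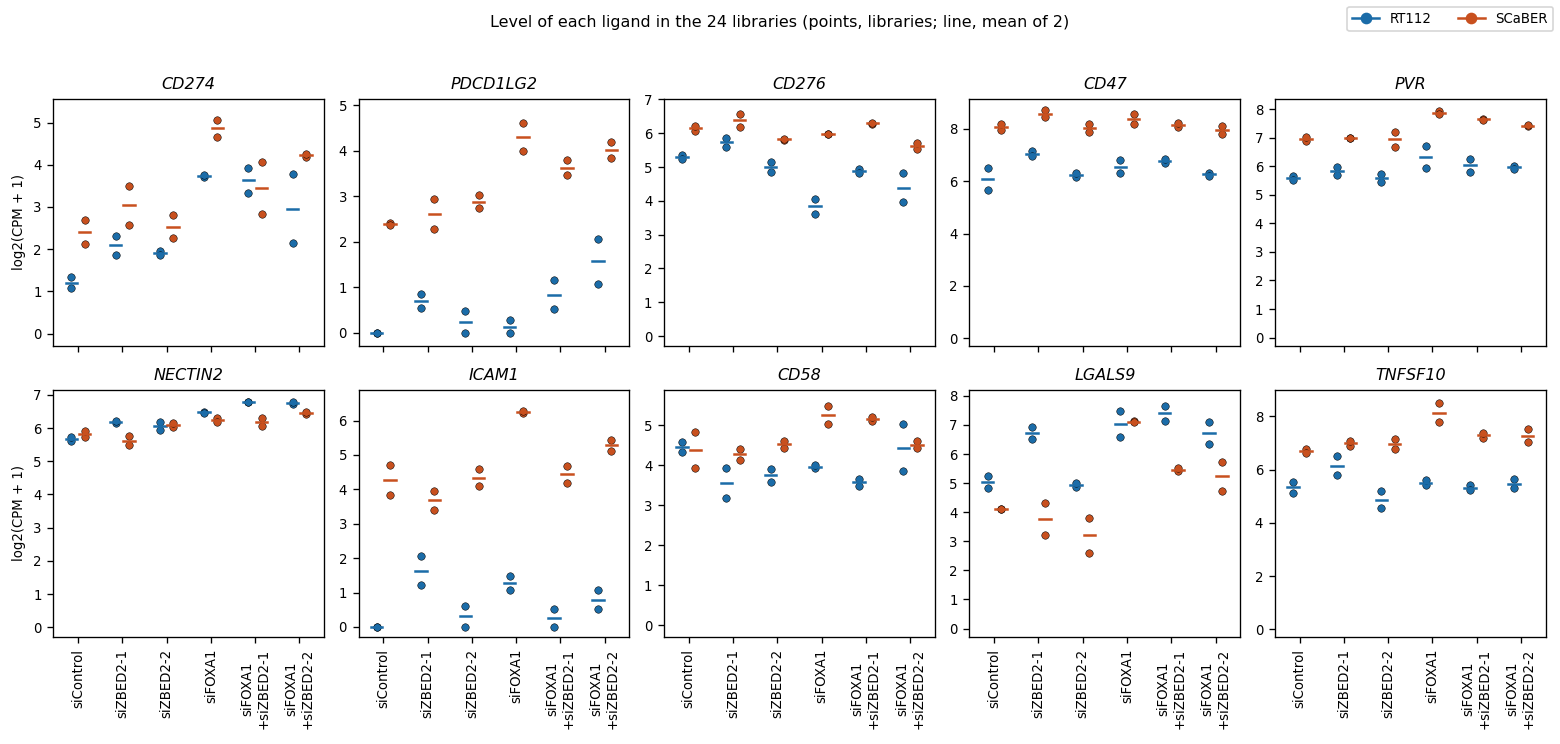
Level of each of the 10 ligands as log2(CPM + 1) on the vertical axis in the 6 siRNA treatments on the horizontal axis, with 1 point per library, a line at the mean of the 2 libraries, RT112 in blue and SCaBER in orange. CD274 and LGALS9 are higher in both siFOXA1 libraries than in both siControl libraries of either line. In RT112 ICAM1 and PDCD1LG2 are at 0 in the siControl libraries and reach at most 3.17 and 3.19 CPM in any library.

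The lines differed in their ligands before FOXA1 or ZBED2 was targeted. Under siControl CD274, CD276, CD47, PVR and TNFSF10 were called higher in SCaBER and LGALS9 lower. Of the 14823 genes tested 17.2% were called higher and 16.4% lower. ICAM1 and PDCD1LG2 were called higher too, but they are not counted here. They entered this test only through their SCaBER counts, so their direction was fixed beforehand. The adhesion ligand ICAM1 had 0 counts in both RT112 control libraries and 25.03 and 13.2 CPM in SCaBER, at least 31.7-fold higher against the floor of 3 counts per library. PDCD1LG2 likewise had 0 counts in the RT112 controls and 4.30 and 4.13 CPM in SCaBER, at least 6.99-fold higher. CD47 was 49.9 and 89.4 CPM in RT112 and 247 and 288 CPM in SCaBER, 3.82-fold higher (log2 difference 1.93, SE 0.20, adjusted p = 1.66e-09). PVR (log2 difference 1.37, adjusted p = 2.73e-06), TNFSF10 (1.37, adjusted p = 3.81e-05) and CD276 (0.88, adjusted p = 0.00394) were also higher in SCaBER. NECTIN2, at 47.8 and 51.8 CPM against 52.1 and 59.4 CPM, differed by 0.16 (95% interval -0.19 to 0.51), and CD58 by -0.01 (-0.72 to 0.70), neither passing the test.

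CD274 itself was low in both lines, with 7 and 6 counts in RT112 and 18 and 28 counts in SCaBER under siControl. Its log2 difference of 1.74 (SE 0.67, adjusted p = 0.0424) did not pass with the replicate as a block (adjusted p = 0.0578), nor without SCaBER replicate 2 (1.35, adjusted p = 0.244), RT112 replicate 1 (1.98, adjusted p = 0.0967) or RT112 replicate 2 (1.52, adjusted p = 0.216). LGALS9 was the member with more RNA in RT112, at 36.6 and 27.2 CPM against 16.3 CPM in both SCaBER controls (log2 difference -0.97, SE 0.36, adjusted p = 0.0371). This call was lost with DESeq2 (adjusted p = 0.107) and without SCaBER replicate 1 (-0.96, adjusted p = 0.0988), SCaBER replicate 2 (-0.97, adjusted p = 0.0968) or RT112 replicate 1 (-0.74, adjusted p = 0.188).

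The comparison of siFOXA1 with siControl asked how these ligands respond when FOXA1, a factor of luminal identity, is targeted. In RT112, 4 of the 8 members with enough counts to be tested rose (CD274, LGALS9, NECTIN2 and PVR) and CD276 fell, where 11.3% of the 13264 genes tested were called higher and 11.9% lower. In SCaBER 7 of 10 rose (LGALS9, CD274, PDCD1LG2, ICAM1, TNFSF10, PVR and CD58) and none fell, where 8.71% of 13129 genes were called higher and 9.12% lower. The median log2 fold change of the members tested was 0.60 in RT112 and 1.20 in SCaBER, beside -0.01 and -0.02 over all genes. Because these are bulk samples, more RNA per cell and a larger share of cells with the transcript cannot be told apart.

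CD274 (PD-L1) rose in both lines. In RT112 its level of 1.53 and 1.10 CPM under siControl became 12.1 and 12.6 CPM under siFOXA1, 9.20-fold (log2 fold change 3.20, SE 0.73, adjusted p = 0.00204). The SCaBER levels were 3.36 and 5.51 CPM and then 24.1 and 32.5 CPM, 6.29-fold (2.65, SE 0.47, adjusted p = 7.24e-05). The treated and control libraries did not overlap in either line, and the difference between the lines in this response was -0.55 (95% interval -2.19 to 1.09, adjusted p = 0.863). PDCD1LG2 (PD-L2), the neighbouring gene, rose in SCaBER from 4.30 and 4.13 CPM to 14.9 and 23.5 CPM (2.16, SE 0.46, adjusted p = 7.10e-04). In RT112 it had at most 1 count in the siControl and siFOXA1 libraries and was not tested, so a response was not detectable at this depth.

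LGALS9, the galectin, gave the largest fold change of the members in SCaBER, where it went from 16.3 CPM in both controls to 138 and 135 CPM, 8.28-fold (3.05, SE 0.33, adjusted p = 1.09e-08). In RT112 it rose from 36.6 and 27.2 CPM to 177 and 94.5 CPM (2.08, SE 0.28, adjusted p = 4.09e-06), with a spread between the siFOXA1 libraries that did not reach the controls. When reads of LGALS9B and LGALS9C were added to those of LGALS9, the log2 fold changes were 2.86 in SCaBER and 2.02 in RT112 (adjusted p = 3.36e-09 and 5.84e-06). Reads that aligned to several of these copies were not counted, so no such sum can hold them. The line difference of 0.97 (SE 0.48) did not pass the test (adjusted p = 0.330).

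Among the TIGIT and CD226 ligands, PVR rose in SCaBER from 117 and 128 CPM to 245 and 224 CPM (0.91, SE 0.15, adjusted p = 2.80e-05). In RT112 it went from 49.9 and 45.04 CPM to 59.7 and 105 CPM (0.78, SE 0.24, adjusted p = 0.0219), a call that rested on few libraries: the value was 0.33 without siFOXA1 replicate 2 (adjusted p = 0.514), 0.86 without siControl replicate 1 (adjusted p = 0.0504) and 0.69 without siControl replicate 2 (adjusted p = 0.138). NECTIN2 rose in RT112 from 47.8 and 51.8 CPM to 89.2 and 86.7 CPM (0.81, SE 0.18, adjusted p = 0.00171). In SCaBER NECTIN2 was 52.1 and 59.4 CPM under siControl and 78.1 and 71.2 CPM under siFOXA1, and the change of 0.40 (SE 0.18) did not pass (adjusted p = 0.135). The lines did not differ measurably in either response, by 0.14 for PVR (95% interval -0.42 to 0.71) and -0.40 for NECTIN2 (-0.88 to 0.09).

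The adhesion ligands rose in SCaBER. ICAM1 went from 25.03 and 13.2 CPM to 73.4 and 77.1 CPM, 3.88-fold (1.96, SE 0.29, adjusted p = 6.18e-06), with both siFOXA1 libraries far above the controls. CD58 went from 14.2 and 27.3 CPM to 31.7 and 43.4 CPM (0.84, SE 0.30, adjusted p = 0.0456), close to the threshold: it was lost with library size as the only scaling (adjusted p = 0.0716), with no filter on low counts (0.0533), with DESeq2 (0.0503), without siControl replicate 1 (0.44, adjusted p = 0.507) and without siFOXA1 replicate 2 (0.59, adjusted p = 0.360). In RT112 CD58 was 19.0 and 22.8 CPM against 14.1 and 15.0 CPM (-0.53, SE 0.41, adjusted p = 0.387). ICAM1 was not tested in RT112, where the siControl libraries held 0 counts. The siFOXA1 libraries held 9 and 5 counts, a mean level 2.41 times the floor of the siControl group.

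TNFSF10 and CD276 were the members whose siFOXA1 response differed between the lines by the test of the difference itself, where 2.58% of 14823 genes were called. TNFSF10 (TRAIL) rose in SCaBER from 109 and 96.4 CPM to 218 and 362 CPM (1.48, SE 0.19, adjusted p = 3.65e-07), while in RT112 it was 33.6 and 45.8 CPM against 41.4 and 47.6 CPM (0.15, SE 0.27, adjusted p = 0.759). The difference was 1.33 (SE 0.34, adjusted p = 0.0268). CD276 (B7-H3) fell in RT112 from 39.7 and 36.8 CPM to 11.3 and 15.6 CPM, or by -1.52 in log2 terms (SE 0.31, adjusted p = 7.52e-04), and was 66.7 and 73.7 CPM against 62.3 and 62.6 CPM in SCaBER (-0.19, SE 0.19, adjusted p = 0.567). Its difference was 1.34 (SE 0.35, adjusted p = 0.0283).

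These line differences were near the threshold. Without a library that of TNFSF10 was 1.24 (SCaBER siControl replicate 2, adjusted p = 0.0783), 0.92 (SCaBER siFOXA1 replicate 2, adjusted p = 0.204), 1.23 (RT112 siFOXA1 replicate 1, adjusted p = 0.0543) or 1.09 (RT112 siControl replicate 2, adjusted p = 0.152). For CD276 it lost the call without any SCaBER siControl or siFOXA1 library (1.27 and 1.41 without siControl replicates 1 and 2, and 1.34 without either siFOXA1 library) and without RT112 siControl replicate 1 (1.28), RT112 siControl replicate 2 (1.39) or RT112 siFOXA1 replicate 1 (1.11), with adjusted p between 0.0594 and 0.120. CD47, the SIRPA ligand, was 49.9 and 89.4 CPM against 77.7 and 112 CPM in RT112 (0.43, SE 0.22, adjusted p = 0.170). In SCaBER its levels were 247 and 288 CPM against 293 and 382 CPM (0.32, SE 0.15, adjusted p = 0.134). The change of CD47 passed in SCaBER with the replicate as a block (0.31, adjusted p = 0.0401) and without siFOXA1 replicate 1 (0.50, adjusted p = 0.0196), and in RT112 without siFOXA1 replicate 1 (0.67, adjusted p = 0.0432) or siControl replicate 2 (0.90, adjusted p = 0.0114).

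**Figure D2:**
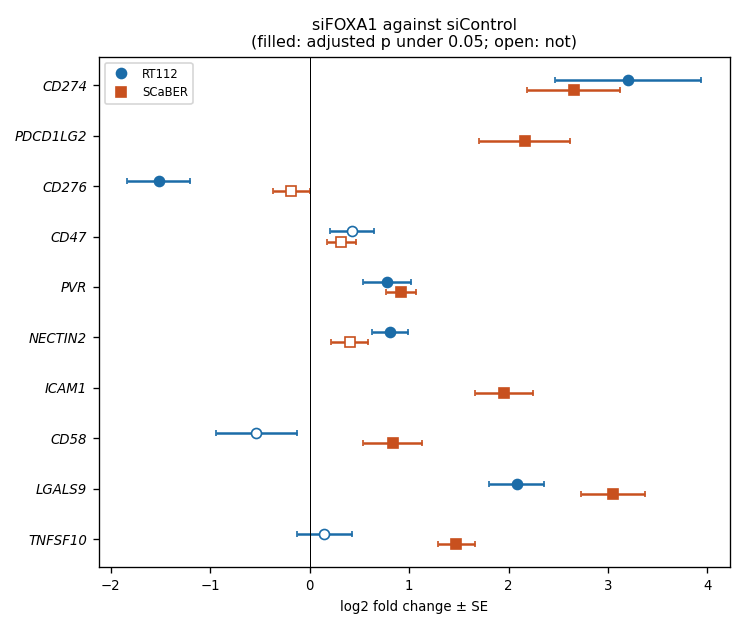
Log2 fold change of each ligand under siFOXA1 against siControl on the horizontal axis, with bars of 1 SE, for RT112 (blue circles) and SCaBER (orange squares); filled symbols passed an adjusted p of 0.05, and PDCD1LG2 and ICAM1 were not tested in RT112. CD274 (3.20 and 2.65) and LGALS9 (2.08 and 3.05) lie far right of 0 in both lines, while CD276 lies left of 0 in RT112 (-1.52) and TNFSF10 right of 0 in SCaBER (1.48).

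The FOXA1 siRNA was given in 3 ZBED2 states (with no ZBED2 siRNA, with siZBED2-1 and with siZBED2-2), so its effect could also be averaged over 6 libraries against 6. By that measure 5 of 8 members were called in RT112, where 4479 of 13264 genes were called in either direction (16.7% higher, 17% lower). In SCaBER 8 of 10 were called, where 3169 of 13129 genes were called in either direction (12.1% higher, 12% lower). CD276 was lower in RT112, by -0.99 (SE 0.18, adjusted p = 7.52e-05), and NECTIN2 was higher in both lines: the RT112 value was 0.70 (SE 0.10, adjusted p = 6.92e-06), the SCaBER value 0.45 (SE 0.11, adjusted p = 0.00166). PVR was higher as well, with an RT112 value of 0.45 (SE 0.14, adjusted p = 0.0144) beside a SCaBER value of 0.67 (SE 0.09, adjusted p = 3.26e-07). The RT112 value of PVR fell to 0.30 without siFOXA1 replicate 2 (adjusted p = 0.106) and 0.37 without siFOXA1+siZBED2-1 replicate 2 (adjusted p = 0.0542). CD58 in SCaBER was higher by 0.58 (SE 0.17, adjusted p = 0.0119), or 0.44 without siControl replicate 1 (adjusted p = 0.0741).

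On this average 2 members differed between the lines, where 8.11% of genes were called. The average includes the siFOXA1 and siControl libraries of the comparison above, so it is not a separate test. The difference was 0.83 for CD276 (SE 0.20, adjusted p = 0.00603) and 0.75 for TNFSF10 (SE 0.20, adjusted p = 0.0143), both more positive in SCaBER. LGALS9 differed by 0.71 (SE 0.28, adjusted p = 0.121). This difference passed with the replicate as a block (0.78, adjusted p = 0.0147), with no filter on low counts (0.71, adjusted p = 0.00536) and without any of 6 libraries: SCaBER siFOXA1+siZBED2-2 replicate 1 (0.85), siZBED2-1 replicate 2 (0.96) or siZBED2-2 replicate 2 (0.99), and RT112 siFOXA1 replicate 1 (0.89), siFOXA1+siZBED2-1 replicate 1 (0.81) or siFOXA1+siZBED2-2 replicate 1 (0.85). For CD47 the averaged effect was 0.05 (SE 0.13, adjusted p = 0.799) for RT112 libraries and -0.06 (SE 0.08, adjusted p = 0.653) for SCaBER libraries.

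Other genes around these ligands moved as follows under siFOXA1. Among 17 PD-L1 partners and regulators of interferon signalling, 7 rose and 2 fell of 16 tested in RT112, and 5 rose and 1 fell of 16 in SCaBER. STAT2 (2.03 in RT112, 2.71 in SCaBER), IRF9 (3.50 and 1.76) and IRF2 (0.84 and 0.62) rose in both lines, and CMTM4, which stabilises PD-L1 protein together with CMTM6, fell in both (-1.53 and -0.77). CMTM6 was at 0.24 (adjusted p = 0.216) and 0.00 (adjusted p = 0.993). Of 10 interferon-stimulated genes, 6 rose in RT112 and all 10 in SCaBER, with median log2 fold changes of 2.03 and 2.65, and ISG15 at 2.12 and 2.57. Of 10 NF-kB targets, 5 of 7 tested rose in RT112, whereas 2 rose and 2 fell of 10 in SCaBER, NFKB2 (1.70 and 0.59) and TNFAIP3 (2.28 and 0.55) rising in both.

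Ligands of other families were counted in the same comparison. Of 16 further B7 and TNF family ligands only 4 in RT112 and 5 in SCaBER could be tested: VTCN1 (B7-H4) rose in RT112 (3.26, adjusted p = 2.91e-07), and VSIR (-1.38, adjusted p = 0.00471) and CD70 (-0.55, adjusted p = 0.0181) fell in SCaBER. Of the nectins and cell adhesion molecules, 4 rose and 1 fell in each line, of 9 and 11 tested. CEACAM1, an adhesion molecule that also binds TIM-3, rose in both lines (1.66 and 2.52), as did the junction protein F11R (0.67 and 0.99), and NECTIN1 fell in both (-1.14 and -0.73). Among galectins LGALS8 rose in both (0.52 and 0.94), of 5 and 4 tested, while LGALS1 fell in SCaBER (-0.34, adjusted p = 0.0426).

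Receptors and enzymes that act with the members moved too. The TRAIL receptor TNFRSF10B (DR5) rose in both lines (1.24 and 0.98), of 2 and 4 TRAIL receptors tested. NT5E (CD73), which makes adenosine, rose in both (1.34 and 0.46), within a list of other inhibitory surface proteins and enzymes where 3 rose and 1 fell of 6 in RT112 and 1 rose of 5 in SCaBER. Of the butyrophilins 1 of 5 rose in each line, BTN3A2 in RT112 (1.04, adjusted p = 0.0194) and BTN3A1 in SCaBER (1.37, adjusted p = 0.00247). None of the 7 and 8 natural killer cell ligands tested was called by edgeR, with 1 in each line at an unadjusted p under 0.05. Immune cell receptors of the members, such as PDCD1 and TIGIT, were mostly too low to test, with 2 of 11 tested in each line, and of these ITGB2, a chain of LFA-1, rose in SCaBER (1.13, adjusted p = 0.0172). Markers of identity and of other cell types moved in the same comparison. In RT112 the luminal factors GATA3 (-0.89) and PPARG (-1.10) fell with 2 uroplakins. They were picked from a list of 9 luminal markers after their values were seen, and the rest of that list is not given here. Of 3 stromal markers tested in RT112 COL1A1 rose (3.11) while LUM (-0.98) and PECAM1 fell, with a summed stromal level of 111 to 191 CPM over the RT112 libraries. In SCaBER the summed stromal level was 16.5 to 45.9 CPM and neither of 2 stromal markers tested was called, both having an unadjusted p under 0.05. Their part in the ligand changes was not tested.

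Adding a ZBED2 siRNA to the FOXA1 siRNA asked whether the ligand response changed when both factors were targeted. ZBED2 itself was 20.4 and 19.0 CPM under siFOXA1 in SCaBER. It was 3.70 and 1.69 CPM there with siFOXA1+siZBED2-1 and 9.75 and 11.8 CPM with siFOXA1+siZBED2-2, so the averaged groups differed in ZBED2 RNA. In SCaBER 3 members were lower in the mean of the double knock-downs than under siFOXA1, namely LGALS9, ICAM1 and TNFSF10, and none was higher, where 1.77% of 13129 genes were called lower. LGALS9 went from 138 and 135 CPM to 41.6 and 44.4 CPM with siZBED2-1 and 25.7 and 51.8 CPM with siZBED2-2 (-1.74, SE 0.25, adjusted p = 2.01e-05), 4 libraries that all lay below siFOXA1 and above siControl. With LGALS9B and LGALS9C reads added the value was -1.68 (adjusted p = 6.42e-06). ICAM1 went from 73.4 and 77.1 CPM to 24.6 and 17.3 CPM with siZBED2-1 and 41.97 and 33.999 CPM with siZBED2-2 (-1.40, SE 0.24, adjusted p = 2.19e-04), the siZBED2-1 pair lying within the range set by the controls.

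TNFSF10 went from 218 and 362 CPM to 145 and 167 CPM and 129 and 182 CPM (-0.89, SE 0.15, adjusted p = 3.27e-04), but its value without siFOXA1 replicate 2, the highest library, was -0.47 (adjusted p = 0.201). CD274 went from 24.1 and 32.5 CPM to 15.7 and 6.13 CPM and 17.3 and 18.0 CPM, and the change of -1.02 (SE 0.36) did not pass (adjusted p = 0.117), though it did without siFOXA1+siZBED2-1 replicate 1 (-1.43, adjusted p = 0.0234). The change of CD47, -0.34 (SE 0.12, adjusted p = 0.145), passed with the replicate as a block (-0.33, adjusted p = 0.0290) and without siFOXA1 replicate 1 (-0.52, adjusted p = 0.0183). The remaining members gave -0.53 for PDCD1LG2, -0.35 for PVR, -0.44 for CD58, -0.02 for CD276 and 0.09 for NECTIN2, with adjusted p between 0.139 and 0.968. PVR stood at 201 and 195 CPM with siZBED2-1 and 167 and 172 CPM with siZBED2-2, all 4 libraries between the controls and siFOXA1, and PDCD1LG2 at 9.99 and 12.9 CPM and 17.3 and 13.3 CPM. The median of the 10 members was -0.49, beside -0.01 over all genes. The labels name no group with siFOXA1 and a control siRNA together, so targeting ZBED2 and adding any other siRNA cannot be told apart here.

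**Figure D3:**
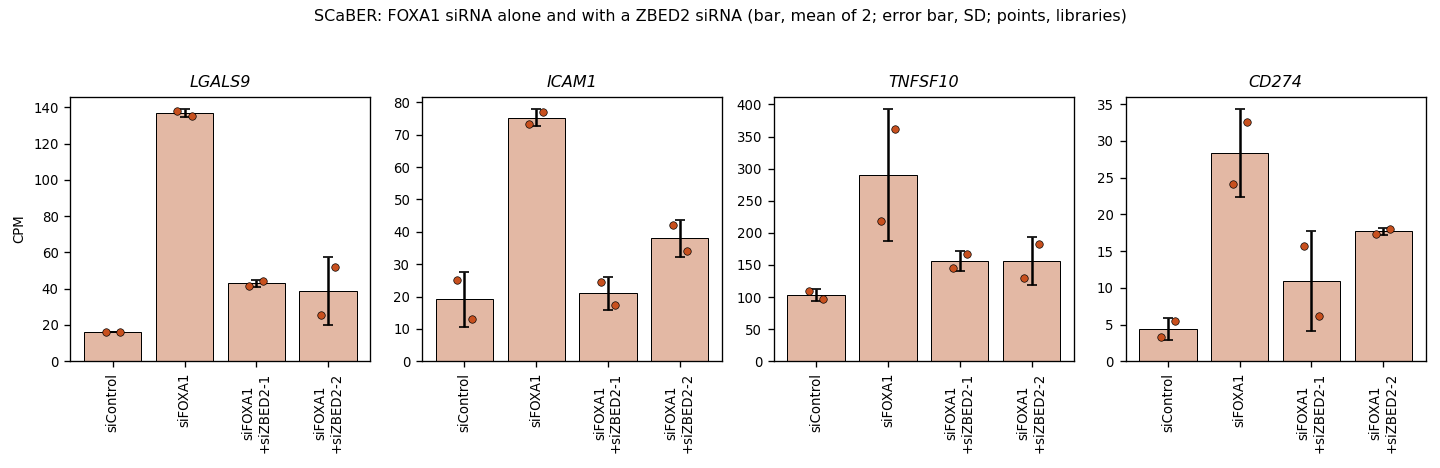
CPM of LGALS9, ICAM1, TNFSF10 and CD274 in SCaBER under siControl, siFOXA1 and the double knock-downs, each panel with its own vertical axis from 0; bars are means of 2 libraries, error bars are SD and points are libraries. In each panel all 4 double knock-down libraries lie below both siFOXA1 libraries, and those of TNFSF10 under siFOXA1 are at 218 and 362 CPM.

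The interaction contrast, which subtracts the effect of the ZBED2 siRNAs alone, was called in SCaBER for TNFSF10 (-1.16, SE 0.23, adjusted p = 0.00267), where 1.21% of genes were called lower. Without siFOXA1 replicate 2 it was -0.75 (adjusted p = 0.0640), and 0 members were then called. Values for LGALS9 (-1.18, adjusted p = 0.117), ICAM1 (-1.08, adjusted p = 0.119) and CD47 (-0.57, adjusted p = 0.0864) did not pass. With the replicate as a block LGALS9 (-1.16, adjusted p = 0.0305), ICAM1 (-1.13, adjusted p = 0.0467) and CD47 (-0.56, adjusted p = 0.00852) were called as well, giving 4 members in place of 1. Over all genes the blocked fit called 508 in place of 300, in either direction. CD47 also passed with DESeq2 (-0.58, adjusted p = 0.0444) and, with LGALS9, with no filter on low counts (-0.57 and -1.18, adjusted p = 0.0265 and 0.0129). Over all genes DESeq2 called 464 and the fit with no filter 401. Calls were also gained by LGALS9 without siZBED2-1 replicate 1, siZBED2-2 replicate 1 or siFOXA1+siZBED2-2 replicate 2 (-1.43, -1.45 and -1.49), by CD47 without siZBED2-2 replicate 1, siFOXA1 replicate 1 or siFOXA1+siZBED2-2 replicate 2 (-0.65, -0.77 and -0.66), and by ICAM1 without siControl replicate 1 (-1.62).

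In RT112 none of the 8 members tested was called by edgeR between the double knock-downs and siFOXA1, where 1.96% of genes were; 1 had an unadjusted p under 0.05, and DESeq2 also called 0. CD274 held 9.13 and 14.2 CPM with siZBED2-1 and 12.8 and 3.40 CPM with siZBED2-2, against 12.1 and 12.6 CPM under siFOXA1 (-0.34, 95% interval -1.39 to 0.71). LGALS9 held 202 and 139 CPM and 136 and 81.0 CPM, against 177 and 94.5 CPM (0.00, 95% interval -0.43 to 0.44). CD276, which siFOXA1 had lowered to 11.3 and 15.6 CPM, was 29.9 and 27.6 CPM and 14.5 and 27.4 CPM (0.87, SE 0.28, adjusted p = 0.116), and 1.06 without siFOXA1+siZBED2-2 replicate 1 (adjusted p = 0.0416). ZBED2 RNA was already reduced by siFOXA1 alone in this line, as given above. It was 1.91 and 1.42 CPM with siFOXA1+siZBED2-1 and 2.64 and 0.851 CPM with siFOXA1+siZBED2-2. The part of ZBED2 levels in these ligand values was not tested. The interaction called 0 members in RT112 by edgeR and by DESeq2, where 0.611% of genes were called, and 3 had an unadjusted p under 0.05.

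The double knock-downs were also compared with siControl, the same control libraries that served the siFOXA1 comparison. In RT112 CD274 (2.86, SE 0.68, adjusted p = 0.00325), LGALS9 (2.08, SE 0.25, adjusted p = 1.15e-06) and NECTIN2 (1.11, SE 0.16, adjusted p = 1.56e-05) were higher, where 9.62% of genes were, and NECTIN2 stood at 105 to 110.0 CPM in all 4 libraries. The CD274 call was lost without siControl replicate 2 (2.63, adjusted p = 0.0567). CD47 became called without siControl replicate 2 (0.84, adjusted p = 0.0146), and CD276 without siFOXA1+siZBED2-2 replicate 2 (-0.91, adjusted p = 0.0166), the latter at -0.65 with all libraries (adjusted p = 0.0748) and -0.73 with library size as the only scaling (adjusted p = 0.0455).

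In SCaBER 6 members were higher than in siControl, where 5.71% of genes were: CD274 (1.64, adjusted p = 0.00905), PDCD1LG2 (1.63, adjusted p = 0.00751), LGALS9 (1.31, adjusted p = 0.00206), TNFSF10 (0.59, adjusted p = 0.0166), PVR (0.57, adjusted p = 0.00380) and NECTIN2 (0.50, adjusted p = 0.0403). LGALS9 kept its call whichever library was left out. The others each lost it in some of these fits: CD274 without siControl replicate 1 (1.32) or siFOXA1+siZBED2-1 replicate 1 (1.22), PDCD1LG2 without siControl replicate 1 (1.66) or 2 (1.61), PVR without siControl replicate 1 (0.50), TNFSF10 without siControl replicate 2 (0.50) or siFOXA1+siZBED2-2 replicate 2 (0.46), and NECTIN2 without siControl replicate 1 (0.40) or 2 (0.60), siFOXA1+siZBED2-1 replicate 2 (0.43), or siFOXA1+siZBED2-2 replicate 1 (0.51) or 2 (0.49). NECTIN2 was also lost with library size as the only scaling (0.44, adjusted p = 0.0721) and with no filter (0.50, adjusted p = 0.0570). ICAM1, at 0.55 (adjusted p = 0.195), was called without siControl replicate 1 (1.08, adjusted p = 0.0428).

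Genes of the related lists showed where else the double knock-downs differed from siFOXA1. In SCaBER all 10 interferon-stimulated genes were lower (median -1.11, ISG15 -1.17), together with STAT2 (-0.92, adjusted p = 5.32e-04), the adhesion molecules ALCAM (-0.46, adjusted p = 0.00284) and ICAM2 (-1.85, adjusted p = 0.0365), while edgeR called 0 of 10 NF-kB targets, with 0 at an unadjusted p under 0.05. In RT112 edgeR called none of the 10 interferon-stimulated genes (1 at an unadjusted p under 0.05) and none of the 7 NF-kB targets tested (also 1), and ISG15 was at -0.49 (adjusted p = 0.547). In SCaBER edgeR called none of the B7 and TNF family ligands, galectins, butyrophilins or natural killer cell ligands tested, of which 1, 1, 1 and 0 had an unadjusted p under 0.05.

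The ZBED2 siRNAs given alone changed few of the ligands, and the siRNAs gave unlike values. Under siZBED2-1 in RT112, LGALS9 rose from 36.6 and 27.2 CPM to 120.1 and 90.5 CPM (1.72, SE 0.27, adjusted p = 1.29e-04) and CD47 from 49.9 and 89.4 CPM to 139.5 and 124 CPM (0.91, SE 0.22, adjusted p = 0.00730), where 4.35% of genes were called higher. CD47 was at 0.56 without siControl replicate 1 (adjusted p = 0.205) and 0.82 without siZBED2-1 replicate 1 (adjusted p = 0.0606). TNFSF10, at 54.2 and 89.2 CPM against 33.6 and 45.8 CPM (0.85, adjusted p = 0.0516), passed with the replicate as a block (0.84, adjusted p = 0.0253), with no filter on low counts (0.85, adjusted p = 0.0236) and without siZBED2-1 replicate 1 (1.16, adjusted p = 0.0206). In SCaBER CD47 rose from 247 and 288 CPM to 349.5 and 416 CPM (0.49, SE 0.14, adjusted p = 0.0413), where 2.19% of genes were called higher. That call was lost with library size as the only scaling (0.46, adjusted p = 0.0662), without siControl replicate 1 (0.39, adjusted p = 0.261) and without siZBED2-1 replicate 2 (0.37, adjusted p = 0.380).

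Under siZBED2-2 no member was called in either line by edgeR or DESeq2, with 1 in each line at an unadjusted p under 0.05, and the share over all genes was 0.166% (RT112) and 0.625% (SCaBER). LGALS9 was 27.96 and 31.3 CPM in RT112 under this siRNA, within the range of its controls, and 5.09 and 12.9 CPM in SCaBER, below them (-0.83, SE 0.35, adjusted p = 0.539). CD47 was 71.3 and 78.3 CPM in RT112 and 235 and 291 CPM in SCaBER. Tested directly, in a comparison added after the data were seen, siZBED2-1 exceeded siZBED2-2 in RT112 for LGALS9 (1.83, SE 0.27, adjusted p = 8.34e-05), TNFSF10 (1.31, SE 0.28, adjusted p = 0.00310) and CD47 (0.82, SE 0.22, adjusted p = 0.0176), where 3.77% of genes were called higher. In SCaBER it did so for CD47 (0.51, SE 0.14, adjusted p = 0.0362), where 1.61% were.

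Of these differences between the siRNAs, that of LGALS9 kept its call without any library. CD47 lost it in RT112 without siZBED2-1 replicate 1 (0.73, adjusted p = 0.114) or siZBED2-2 replicate 1 (0.76, adjusted p = 0.0897), and in SCaBER without siZBED2-2 replicate 1 (0.37, adjusted p = 0.320) or siZBED2-1 replicate 2 (0.38, adjusted p = 0.371). TNFSF10 lost it in RT112 without siZBED2-2 replicate 1 (1.02, adjusted p = 0.0619) or siZBED2-1 replicate 2 (0.89, adjusted p = 0.146). The difference in ZBED2 RNA between the siRNAs was -2.45 (adjusted p = 0.105) for RT112 and -1.34 (adjusted p = 0.106) for SCaBER, and the part of this in the ligand differences was not tested.

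**Figure D4:**
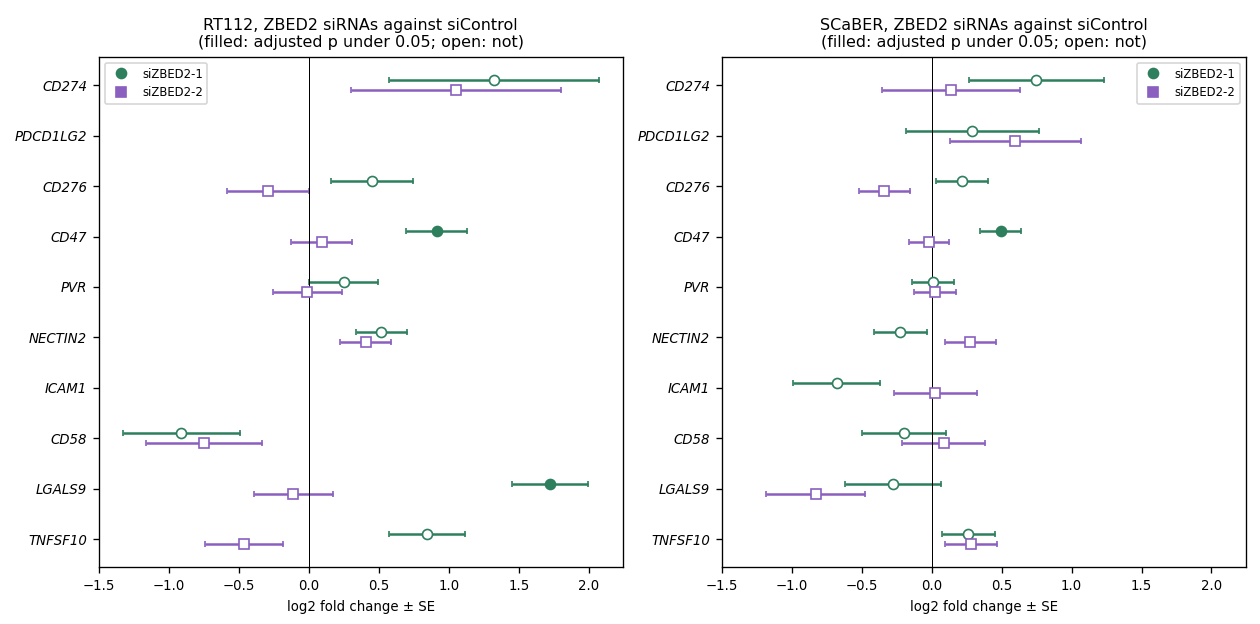
Log2 fold change of each ligand under siZBED2-1 (green circles) and siZBED2-2 (purple squares) against siControl on the horizontal axis, with bars of 1 SE, in RT112 (left) and SCaBER (right); filled symbols passed an adjusted p of 0.05, and PDCD1LG2 and ICAM1 were not tested in RT112. Filled symbols occur for siZBED2-1 alone, at CD47 (0.91 and 0.49) and at LGALS9 in RT112 (1.72).

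Over the mean of both ZBED2 siRNAs edgeR called no member in either line, where 2.37% (RT112) and 1.83% (SCaBER) of all genes passed, with 4 and 0 members at an unadjusted p under 0.05. LGALS9 in RT112, at 0.81 (SE 0.25, adjusted p = 0.0946), was called with the replicate as a block (0.82, adjusted p = 0.00482), with DESeq2 (0.81, adjusted p = 0.0498) and with no filter on low counts (0.81, adjusted p = 0.00194), and CD47 there without siControl replicate 2 (0.97, adjusted p = 0.0401). In the related lists VTCN1 (1.57, adjusted p = 0.0104), LGALS8 (0.63, adjusted p = 0.0123) and CD24 (0.92, adjusted p = 0.00107), a ligand of the macrophage receptor SIGLEC10, rose in RT112. In SCaBER the costimulatory ligands CD70 (-0.63, adjusted p = 0.00986) and TNFSF9 (-0.98, adjusted p = 0.00272), and VSIR (-1.06, adjusted p = 0.0442) and LGALS1 (-0.57, adjusted p = 9.55e-04), fell. BIRC3, an NF-kB target, rose in both lines (2.13 and 0.54), and of the interferon-stimulated genes 0 of 10 were called in RT112 (3 at an unadjusted p under 0.05) and IFIT3 alone was called in SCaBER, lower. Of 9 basal markers, 5 rose in SCaBER in this comparison, among them KRT14 and KRT6A, and their part in the ligand values was not tested.

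ICAM1 and PDCD1LG2 stayed at trace levels in RT112 in every treatment. ICAM1 had 16 and 6 counts under siZBED2-1, 0 and 3 under siZBED2-2, 2 and 0 with siFOXA1+siZBED2-1 and 5 and 2 with siFOXA1+siZBED2-2. Its siZBED2-1 mean of 2.25 CPM was 3.73 times the floor of the siControl group. PDCD1LG2 reached 5 and 15 counts with siFOXA1+siZBED2-2, a mean of 2.15 CPM and 3.56 times that floor, and 6 counts or fewer in each other RT112 library. Neither gene had enough counts for the test in this line.

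Several members varied together across libraries. Pearson's r was taken over the 24 libraries, on log2 CPM after the mean of each line was subtracted. It was 0.77 between LGALS9 and PVR (0.515 in RT112, 0.932 in SCaBER) and 0.76 between CD274 and LGALS9 (0.82 and 0.74). It was 0.74 between NECTIN2 and PDCD1LG2 (0.7 and 0.813) and 0.73 between CD274 and PVR (0.712 and 0.756). PDCD1LG2 held at most 15 counts in an RT112 library, so its r there rests on levels near the floor. CD276 gave the most negative values, -0.55 with NECTIN2 (-0.519 in RT112, -0.7 in SCaBER) and -0.54 with CD274 (-0.709 in RT112, -0.207 in SCaBER). These values describe libraries that share treatments, so they carry no p.

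Among the other 14822 genes tested in the fit of both lines, those most like CD274 by the same measure were RSAD2 (r = 0.89), an interferon-induced antiviral gene, EMC10 and STX3 (both 0.89), LACTB (0.89) and CAP1 (0.88). The closest to LGALS9 was SP110 (0.92), a nuclear body protein, the closest to PVR was CD63 (0.90) and that to NECTIN2 was NFATC2 (0.90). CD276 was closest to MAP2K4 (0.88), TNFSF10 to ERBIN (0.83), ICAM1 to C7orf61 (0.80), CD47 to PLCB1 (0.80), PDCD1LG2 to ZNF708 (0.79) and CD58 to HLA-F (0.75). Such neighbours were picked as the highest of many genes over few treatments, and their r describes these libraries. Those of ICAM1 and PDCD1LG2 also rest on trace levels in RT112.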

How the data were processed

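Gene expression was read from the raw count table, whose values the authors deposited as whole-number counts of reads per gene. Per the submitters' processing notes, raw-qc 2.1.0, TrimGalore 0.6.2 (minimum quality 20, minimum length 10) and STAR 2.6.1a were used on hg38 with GENCODE 29, and the study's methods name hg19 instead; the settings deposited with the counts were followed. STAR counts uniquely aligned reads, so near-identical paralogs such as LGALS9B can take or lose reads of LGALS9, and 3′ reads near overlapping gene ends can be split. No molecular identifiers were stated. The deposited TPM values were not used, because scaling by length does not suit 3′ reads.

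Groups came from the labels. Counts were tested with edgeR 4.0.16 (R 4.3.3; TMM, filterByExpr with minimum count 10 and minimum total 15, quasi-likelihood F-test), with 12 libraries per line and 6 group means, or all 24 libraries and 12 group means for comparisons of the lines. A gene was called at a Benjamini-Hochberg adjusted p under 0.05 over all 13264 (RT112), 13129 (SCaBER) or 14823 (both) genes tested. Every adjusted p is from edgeR unless DESeq2 1.42.0 is named, and SE is the log2 fold change over the root of its F. The biological coefficient of variation was 25.8%, 21.6% and 24.5%. Tests were checked on simulated data. Alternatives were another scaling, no filter, DESeq2, the replicate as a block and each library left out; the direct comparison of the ZBED2 siRNAs and the summed LGALS9 copies were added after the data were seen.

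The labels give replicate numbers as an experiment batch, so that libraries of equal number count as paired; the fits reported have no block, and the fit with the replicate as a block is an alternative. Deviations of equal numbers correlated at 0.034 (RT112) and 0.026 (SCaBER) on average, with 0 of 15 pairs over 0.1 in each. Whether replicates were separate cultures is otherwise not stated, and the p-values measure the spread between them. Replicates differed by a chi-square of at least 6.24 per gene, so none was a copy. The members and the lists of related genes were chosen with earlier results of these data known. All 10 members were named; from the lists, genes called in the same direction in both lines were named, or otherwise the 2 with the smallest p in either line, and others, such as CMTM6, LGALS1, ITGB2 and the markers, after their values were seen. Promoters and positions came from RefSeq (GRCh38.p14).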

Additional observations from a re-analysis of the deposited data

Results flagged for a closer look

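The siFOXA1 responses of CD276 and TNFSF10 differed between the lines by a test of the difference itself, at 1.34 (SE 0.35, adjusted p = 0.0283) and 1.33 (SE 0.34, adjusted p = 0.0268) on the log2 scale, SCaBER minus RT112. These siFOXA1 differences lost their calls in some fits without 1 library, as given above. The same genes differed in the FOXA1 siRNA effect averaged over the 3 ZBED2 states, by 0.83 (SE 0.20, adjusted p = 0.00603) and 0.75 (SE 0.20, adjusted p = 0.0143). That average includes the same siFOXA1 and siControl libraries, so it is not a separate test. In SCaBER the effect of the FOXA1 siRNA on TNFSF10 was smaller where a ZBED2 siRNA was also given, an interaction of -1.16 (SE 0.23, adjusted p = 0.00267). Without siFOXA1 replicate 2 this interaction was -0.75.

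The ZBED2 siRNAs differed from each other in RT112 for CD47 by 0.82 (SE 0.22, adjusted p = 0.0176), for LGALS9 by 1.83 (SE 0.27, adjusted p = 8.34e-05) and for TNFSF10 by 1.31 (SE 0.28, adjusted p = 0.00310), and in SCaBER for CD47 by 0.51 (SE 0.14, adjusted p = 0.0362), siZBED2-1 minus siZBED2-2 in each case.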

How the results depend on the processing

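No alternative scaling, filter, tool or block turned the direction of a member's called change. Without RT112 siControl replicate 1 the siFOXA1 change of TNFSF10 in RT112, which was not called, turned from 0.15 to -0.052, its values without 1 library running up to 0.38. The number of members called over the mean of both ZBED2 siRNAs in RT112 was 1 in place of 0 with no filter, with DESeq2 and with the replicate block, and the SCaBER interaction gave 3 with no filter, 2 with DESeq2 and 4 with the replicate block in place of 1. Under siZBED2-1 in SCaBER it was 0 in place of 1 with library size as the only scaling. With single libraries left out, the counts ran from 4 to 6 for siFOXA1 in RT112 and 6 to 8 in SCaBER, 1 to 3 for siZBED2-1 against siZBED2-2 in RT112 and 0 to 1 in SCaBER, 1 to 2 for siZBED2-1 in RT112 and 0 to 1 in SCaBER, 0 to 1 for the mean of both ZBED2 siRNAs in RT112, 0 to 1 for the double knock-downs against siFOXA1 in RT112 and 2 to 4 in SCaBER, 3 to 5 for the double knock-downs against siControl in SCaBER, 0 to 3 for the SCaBER interaction and 0 to 2 for the line difference under siFOXA1. The replicate block changed no call of a member beyond those given beside the results. Scaling by library size alone shifted the median of all genes under siFOXA1 in RT112 to -0.11 and the share of its calls that were higher from 48.6% to 38.6%, and in SCaBER to -0.09 and from 48.9% to 39.9%.

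Counts over all genes moved by more than 1.5 times under another filter, tool or block for siZBED2-2 in RT112 (22 genes; 58 with no filter, 70 with DESeq2, 44 blocked) and SCaBER (82; 125 blocked), the mean of both ZBED2 siRNAs in RT112 (314; 486 blocked), the double knock-downs against siFOXA1 in RT112 (260; 430, 422 and 444), the interaction in RT112 (81; 224, 238 and 212) and SCaBER (300; 464 with DESeq2, 508 blocked), and the line differences (382; 845 with DESeq2, 597 blocked; averaged 1202, 1835 with DESeq2). With 1 library left out, which also leaves fewer libraries to test, more of them moved that far. Without siControl replicate 2 of RT112 the counts there were 1869 in place of 3084 for siFOXA1, 589 in place of 1167 for siZBED2-1, 74 in place of 314 for the mean of both ZBED2 siRNAs and 1416 in place of 2646 for the double knock-downs against siControl; without that of SCaBER they were 92 in place of 240 for the mean of both and 809 in place of 1510 for the double knock-downs. Without siFOXA1 replicate 2 the double knock-downs against siFOXA1 gave 30 in place of 260 in RT112 and 211 in place of 504 in SCaBER, the RT112 interaction 13 in place of 81 (330 without replicate 1) and the line difference, without that of RT112, 199 in place of 382. Without siZBED2-1 replicate 2 the comparison of both ZBED2 siRNAs gave 487 in place of 1031 in RT112 and 233 in place of 527 in SCaBER, and siZBED2-1 in SCaBER 302 in place of 610. The siZBED2-2 counts ran from 14 to 42 in RT112 and fell to 34 in place of 82 without siZBED2-2 replicate 1 in SCaBER. The causes were not tested. Depth limits CD274 in RT112 controls and ICAM1 and PDCD1LG2 throughout RT112.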
